A study of Mus musculus with 16 samples.

Results

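The microRNAs described here are the mouse members of the miR-297, miR-466, miR-467 and miR-669 subfamilies, as they were measured in mouse heart. Every array probe whose name holds a mouse microRNA of one of these subfamilies was taken, on either strand and with star names included. That gave 71 of 1023 mouse microRNA probes, 5 for miR-297, 26 for miR-466, 13 for miR-467 and 28 for miR-669, with the probe for miR-466m-5p/miR-669m-5p counted in both subfamilies. Total RNA came from the heart of single mice of the inbred strain C57BL/6, which served as a model of posttraumatic stress disorder. Control mice were kept in a mesh box in a cage without an aggressor. Exposed mice spent 6 hours of each exposure day in such a box with an aggressor present and were attacked. Exposure lasted 1 day (T1R1), 2 days (T2R1) or 3 days (T3R1), with 1 day of rest afterwards in each group. Each group held 4 samples on 2 arrays, 16 samples in all. The labels give no age, and the code of the control titles, C2R1, is not spelled out, so the schedule of the control mice is not known. Days of exposure are those of the design text and group codes, since the treatment protocol in the labels names longer exposures.

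In the mouse genome most of these microRNAs come from a large array of tandem hairpins in an intron of Sfmbt2, a Polycomb group gene that is imprinted and active in the placenta. The array has expanded in rodents, and its products are best known from placenta and embryonic stem cells, where loss of the cluster disturbs placental growth. A hairpin gives a strand from each arm, called 5p and 3p, and in older names a star marks the strand that was found less often. Of 81 hairpin genes with these names in RefSeq, 71 lie within Sfmbt2 on chromosome 2 and 10 lie elsewhere. Of the 71 probes, 57 name only microRNAs with hairpins inside Sfmbt2, 5 name microRNAs with hairpins both inside and outside, and 8 name microRNAs with hairpins outside it only. These 8 are miR-466i-5p, miR-466i-3p, miR-466j, miR-466k, miR-467f, miR-467g, miR-467h and miR-669n. The probe named miR-297a-5* matched no hairpin gene. The set is therefore the Sfmbt2 cluster together with relatives of the same names on other chromosomes.

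Mature sequences were found in RefSeq (build GRCm38.p6) for 7 of the 80 member names, each from a hairpin outside Sfmbt2, and are printed because they separate into AC-repeat and GU-repeat strands. Capitals mark the seed, bases 2 to 8 from the 5′ end, which pairs with target messages. The sequences lie at chr13:17747552-17747573 (+) for miR-466i-3p, chr10:60960802-60960824 (+) for miR-466j, chr3:85467396-85467418 (+) for miR-466k, chr11:69635419-69635439 (-) for miR-467f, chr5:34732872-34732892 (-) for miR-467g, chr9:115381898-115381919 (+) for miR-467h and chr3:115979905-115979924 (+) for miR-669n. All 7 seeds differ.
miR-466i-3p: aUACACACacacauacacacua
miR-467f: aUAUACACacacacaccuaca
miR-467g: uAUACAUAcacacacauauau
miR-466j: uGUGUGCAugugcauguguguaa
miR-466k: uGUGUGUGuacauguacauguga
miR-467h: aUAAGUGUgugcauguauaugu
miR-669n: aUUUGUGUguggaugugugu

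The arrays carried locked nucleic acid probes, which are modified to bind short RNAs tightly, and every member probe was spotted 4 times. The 2 samples of an array belonged to 1 group and differed in dye, Hy3 for one and Hy5 for the other. Over mouse probes the raw signal had a median of 41.2 to 73.7 per sample. Values below are normalized log2 intensities, and differences are log2 differences, exposed minus control or longer minus shorter exposure. The level a probe had to exceed to count as a signal was, in each sample, the 95th percentile of 143 probes for human viruses, called the virus level here. The intensity of a probe also depends on the probe itself, so levels of different probes are not ranked. The slide numbers fall into 2 runs. Run 2 holds T1R1 and T2R1, and run 1 holds T3R1 and control. T3R1 against control and T2R1 against T1R1 thus lie within a run, while in the other 4 comparisons run and group cannot be told apart. In whole hearts, fewer cells that make a microRNA and less of it per cell cannot be told apart either.

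At the virus level used as cutoff, members had a signal in heart more often than other mouse microRNAs did, mostly on the star and 3p strands. In all 16 samples 22 of the 71 members (31.0%) exceeded the virus level, as did 110 of 952 other mouse probes (11.6%). A further 16 members exceeded it in some samples, and 33 (46.5%) in none, against 702 other mouse probes (73.7%) in none. By name, 30 probes were for star or 3p strands, 24 for strands with no mark and 17 for 5p strands. Of the star or 3p probes 18 of 30 were above the virus level in every sample, against 3 of 24 unmarked and 1 of 17 5p probes. Among the other mouse microRNAs star or 3p names were above it less often, 28 of 424 (6.60%), than the other names, 82 of 528 (15.5%). Probes of related sequence are not independent, so these shares are given without a test. The number of members with a signal changed much at other cutoffs, as given below. Other mouse probes and strands were not counted at those cutoffs, so the shares hold for this cutoff only.

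**Figure D1:**
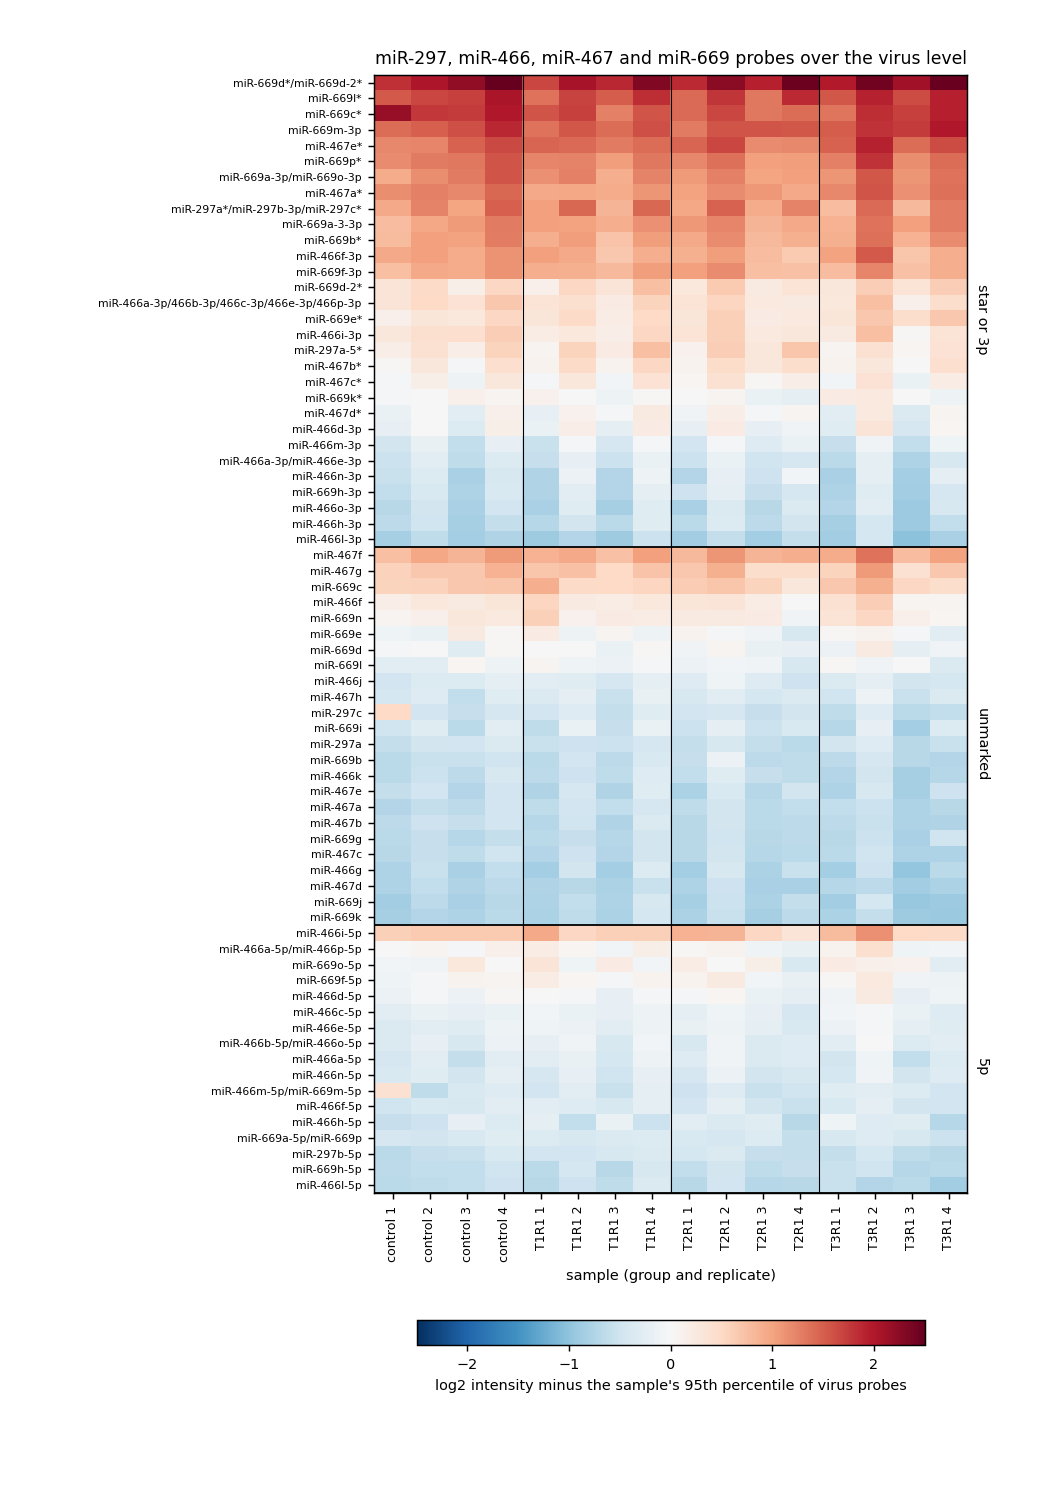
Log2 intensity of each of the 71 probes minus the sample's virus level (colour, log2 units; red above, blue below), with samples by group and replicate along the horizontal axis and probes grouped by strand down the vertical axis. The upper part of the star or 3p block is red in every column, while most 5p and unmarked rows are pale or blue throughout.

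The subfamilies differed in how many members had a signal. miR-669 had 12 of 28 probes above the virus level in every sample, of which 11 were star or 3p strands, out of 13 such probes. The probe for miR-669d*/miR-669d-2* had 8.96 ± 0.28 in control (SD, n = 4), that for miR-669l* 8.52 ± 0.16, that for miR-669m-3p 8.38 ± 0.17 and that for miR-669p* 8.13 ± 0.11. The one star or 3p probe of miR-669 that was never above the virus level was miR-669h-3p. In the miR-467 subfamily miR-467a* and miR-467e* were above it in every sample, and miR-467b*, miR-467c* and miR-467d* in 14, 10 and 8 samples. The unmarked miR-467a to miR-467e were above it in none, but the unmarked miR-467f and miR-467g, from hairpins outside Sfmbt2, were above it in all 16 samples. For miR-466 only 4 of 26 probes had a signal in every sample, namely miR-466f-3p, miR-466i-3p, miR-466i-5p and the probe shared by miR-466a-3p, miR-466b-3p, miR-466c-3p, miR-466e-3p and miR-466p-3p. Of the 5 miR-297 probes both star or 3p probes, miR-297a*/miR-297b-3p/miR-297c* and miR-297a-5*, were above it in every sample.

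**Figure D2:**
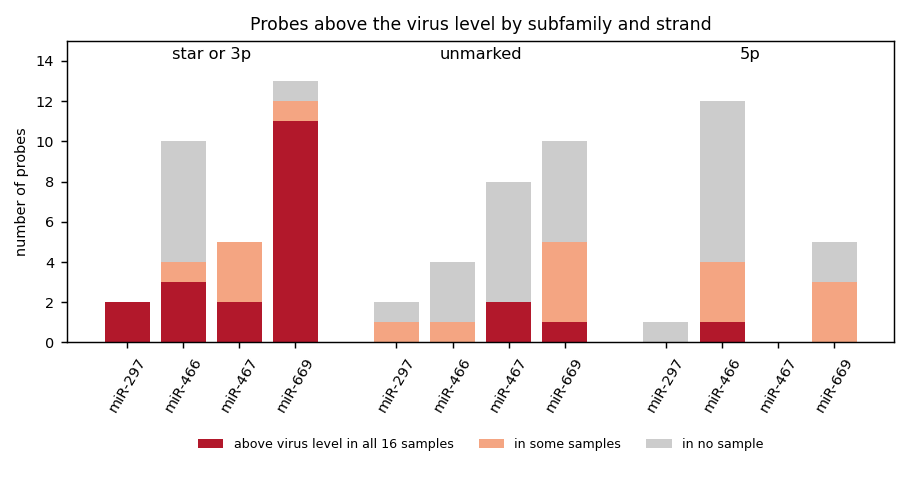
Number of probes (vertical axis) of each subfamily and strand class (horizontal axis) that were above the virus level in all 16 samples, in some or in none. Star or 3p probes of miR-669 make up the tallest red bar, 11 of 13, and no miR-467 probe carries a 5p name.

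Where both arms of a hairpin had a probe, the star or 3p arm was seen in more samples. By name 33 hairpin stems had both, and the star or 3p arm exceeded the virus level in more samples for 25 of them, the other arm for 1 (miR-466m) and neither for 7. Among other mouse microRNAs with both arms the star or 3p arm was ahead for 51 of 372 stems and the other arm for 111. A star marks the strand found less often, so among these other microRNAs the star or 3p class need not be a single arm. Many of their stems had no signal at all. At least one arm was above the virus level in any sample for 164 of the 372 stems, against 28 of the 33 member stems. In 10 stems the star or 3p arm was above the virus level in all 16 samples and the other arm in none, as for miR-467a, miR-467e, miR-669a, miR-669b and miR-669p. Each arm was given the highest count among the probes that name it. The 10 include miR-466e, whose narrower probe, miR-466a-3p/miR-466e-3p, was above the virus level in no sample. Both arms had a signal in all 16 samples for miR-466i and miR-669c. The 33 stems are not separate measurements, because they rest on 27 star or 3p probes and 31 others, and 1 probe can name up to 5 microRNAs.

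Probes that share a name did not always read alike. The probe for miR-466a-3p/miR-466e-3p was never above the virus level (6.34 ± 0.11 in control, SD, n = 4), while the probe that names both of these with miR-466b-3p, miR-466c-3p and miR-466p-3p was above it in every sample (7.25 ± 0.09). The probe for miR-466a-5p alone was never above it, and the probe for miR-466a-5p/miR-466p-5p was in 10 of 16 samples. Both probes that name miR-669d-2* were above it in all samples. A signal of such a probe therefore belongs to the probe and not to a single microRNA of its name.

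The 7 members with a known sequence were 3 AC-repeat strands, all with a signal, and 4 GU-repeat strands, of which 1 had a signal in most samples. miR-466i-3p, miR-467f and miR-467g hold an unbroken run of alternating A and C of 11, 12 and 9 bases, and all 3 were above the virus level in 16 of 16 samples. miR-466j, miR-466k and miR-467h hold runs of alternating G and U of 7, 9 and 7 bases, and none was above it in any sample. miR-669n, with a GU run of 8 bases, was above it in 15 samples. The 1738 mature mouse sequences at hand hold only 7 of the 80 member names, so counts over them leave out most of this family. Among these sequences, searched on the mature strand, AC runs of at least 8 bases were in 4 (0.230%) and GU runs in 9 (0.518%). Of other microRNAs with such a run and a probe of exactly their name, all with GU runs, miR-3082-5p was above the virus level in 16 samples, miR-1187 in 9, miR-574-5p in 8 and miR-3097-5p in none.

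The number of members above the virus level differed between groups by less than the spread between samples. Control had 30.8 ± 3.1 such members, T1R1 had 30.5 ± 2.38, T2R1 had 29.0 ± 3.65 and T3R1 had 30.0 ± 3.92 (SD, n = 4 each). Counts ran over 25 to 35 per sample, so the groups overlapped. The highest counts, 35, were in control replicate 4 and T3R1 replicate 2, and the lowest, 25, was in T2R1 replicate 4. All of these samples were labelled with Hy5.

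After 1 day of exposure the star strand of miR-467a was lower than in control, and no other member passed the test. miR-467a* had 7.79, 7.69, 7.77 and 7.73 in the T1R1 samples, against 8.02, 8.01, 8.05 and 8.15 in control. Every T1R1 value lay below every control value. The difference was -0.31 ± 0.07 (SE, n = 4 against 4), or 0.806-fold, with a limma adjusted p of 0.0440 over all tested mouse probes. It was the 1 of 71 members called, against 0.881% of all 1021 tested probes called in this comparison. The call was lost in 12 of 16 other settings of the processing and when any of 10 samples was left out. In 1 of the remaining settings, scaling by the median of each sample, the direction was reversed. There miR-467a* was called higher, by 0.31 ± 0.10 (limma adjusted p = 0.0335).

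miR-669c* showed a larger but less even difference in T1R1. Its values were 8.42, 8.42, 8.12 and 8.19 in T1R1 samples, against 9.04, 8.50, 8.58 and 8.71 in control. The groups did not overlap, and control replicate 1 was the highest of all samples. The difference of -0.42 ± 0.15 had a limma adjusted p of 0.396. In 3 members every T1R1 sample was below every control sample (2.66% of all mouse probes), and in 1, miR-669j, which was never above the virus level, every T1R1 sample was above (3.05%). Beside miR-467a* and miR-669c*, the lower ones held the shared probe for miR-466a-3p, miR-466b-3p, miR-466c-3p, miR-466e-3p and miR-466p-3p, at 7.14 ± 0.06 in T1R1 and 7.25 ± 0.09 in control. miR-467e* at -0.02 ± 0.11, miR-669e* at 0.04 ± 0.07 and miR-467f at -0.05 ± 0.06 were close to control. Of the 22 members with a signal in every sample 19 had a negative difference, with a median of -0.09, against a median of 0.01 over all mouse probes, of which 56.1% had a positive difference. With 1 sample left out the median of the 22 ran between -0.15 (without T1R1 replicate 1) and -0.06 (without control replicate 4). The 33 members never above the virus level had a median of 0.02.

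After 2 days the same star strands were again below control, with no member called. Of all 1022 tested probes 0.881% were called, and 3 members had an unadjusted limma p under 0.05, as did 7.83% of all probes. miR-467a* had 7.87, 7.82, 7.92 and 7.78 in the T2R1 samples, so that all were below the 4 control values given above, with a difference of -0.21 ± 0.07 (SE, n = 4 against 4) and a limma adjusted p of 0.258. miR-669c* had 8.27, 8.32, 8.16 and 8.23 in T2R1 samples, again below every control sample, with a difference of -0.46 ± 0.15 and a limma adjusted p of 0.313. miR-466f-3p had 7.75, 7.69, 7.61 and 7.49 in T2R1 samples, against 7.82, 7.76, 7.76 and 7.83 in control, and did not overlap either. Its difference was -0.16 ± 0.12, with a limma adjusted p of 0.873. In all, every T2R1 sample was below every control sample for 5 members (1.47% of all mouse probes) and above for 1, miR-466a-5p (2.94%). Of the 5 lower members 2, miR-297a and miR-467b, were never above the virus level, and neither was miR-466a-5p. miR-467b* at 0.15 ± 0.07 and miR-297a-5* at 0.12 ± 0.08 had the largest positive differences among members above the virus level in at least 4 samples, with limma adjusted p of 0.675 and 0.868. The largest of all was 0.16 ± 0.10 for miR-466n-3p, which was never above it. Among the 22 members with a signal in every sample 17 differences were negative and the median was -0.06, while 51.9% of all probes had a positive difference. That median became -0.03 without control replicate 4, -0.04 without control replicate 3 or T2R1 replicate 4, and -0.10 without control replicate 2.

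After 3 days most members lay above control, each by little, in the one comparison with control that lies within a slide run. By limma 0 members and 0% of all 1022 tested probes were called. At an unadjusted limma p under 0.05 there were 5 members, all higher, against 7.14% of all probes in either direction and 2.94% higher. Of these 5 members 2 were never above the virus level. Differences were positive for 52 of 71 members, with a median of 0.05 against -0.00 over all mouse probes, of which 49.1% were positive. Without T3R1 replicate 2 they were positive for 45 members with a median of 0.02, and without control replicate 2 for 51 with a median of 0.03. The median of the 22 members with a signal in every sample was 0.09, and became 0.04 without T3R1 replicate 2 and 0.14 without T3R1 replicate 1. Of these 22 members 17 were positive. Of the 33 members never above the virus level 21 were positive, with a median of 0.02. By subfamily 23 of 28 miR-669 probes, 18 of 26 miR-466 probes, 9 of 13 miR-467 probes and 2 of 5 miR-297 probes were positive. By strand these were 22 of 30 star or 3p, 15 of 24 unmarked and 15 of 17 5p probes, and 11 of the 17 5p probes were never above the virus level.

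miR-669e* differed most clearly from control in T3R1. Its values were 7.15, 7.36, 7.39 and 7.55 in T3R1 samples, against 7.0, 7.04, 7.10 and 7.22 in control. The lowest T3R1 value lay below the highest control value, and the rest lay above it. The difference was 0.27 ± 0.07 (SE, n = 4 against 4), or 1.21-fold, with a limma adjusted p of 0.327. miR-467e* had 8.30, 8.61, 8.34 and 8.51 in T3R1 samples, against 8.07, 7.95, 8.32 and 8.36 in control, a difference of 0.26 ± 0.11 with a limma adjusted p of 0.608. miR-467f, the AC-repeat strand from chromosome 11, had 7.76, 8.05, 7.72 and 7.90 in T3R1 samples, against 7.63, 7.70, 7.69 and 7.78 in control. Its difference was 0.16 ± 0.06, with a limma adjusted p of 0.467. miR-669m-3p had 8.35, 8.50, 8.69 and 8.87 in T3R1 samples, against 8.26, 8.23, 8.45 and 8.60 in control, a difference of 0.22 ± 0.11 with a limma adjusted p of 0.724. In each of these 4 the groups overlapped. miR-467a*, lower in T1R1, was at 8.04, 8.26, 8.08 and 8.25 in T3R1 samples, a difference from control of 0.10 ± 0.07 with a limma adjusted p of 0.898. The miR-297 star probe was at 7.90 ± 0.26 in T3R1 and 7.95 ± 0.18 in control (miR-297a*/miR-297b-3p/miR-297c*, SD, n = 4 each). The T3R1 and control groups were apart for 0 of the 22 members with a signal in every sample, while among the 110 other mouse probes with such a signal every T3R1 sample was above every control sample for 7 and below for 6. Of all 71 members 1, miR-467b, was apart, with every T3R1 sample lower, against 1.67% of all mouse probes higher and 1.96% lower. This member was never above the virus level.

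**Figure D3:**
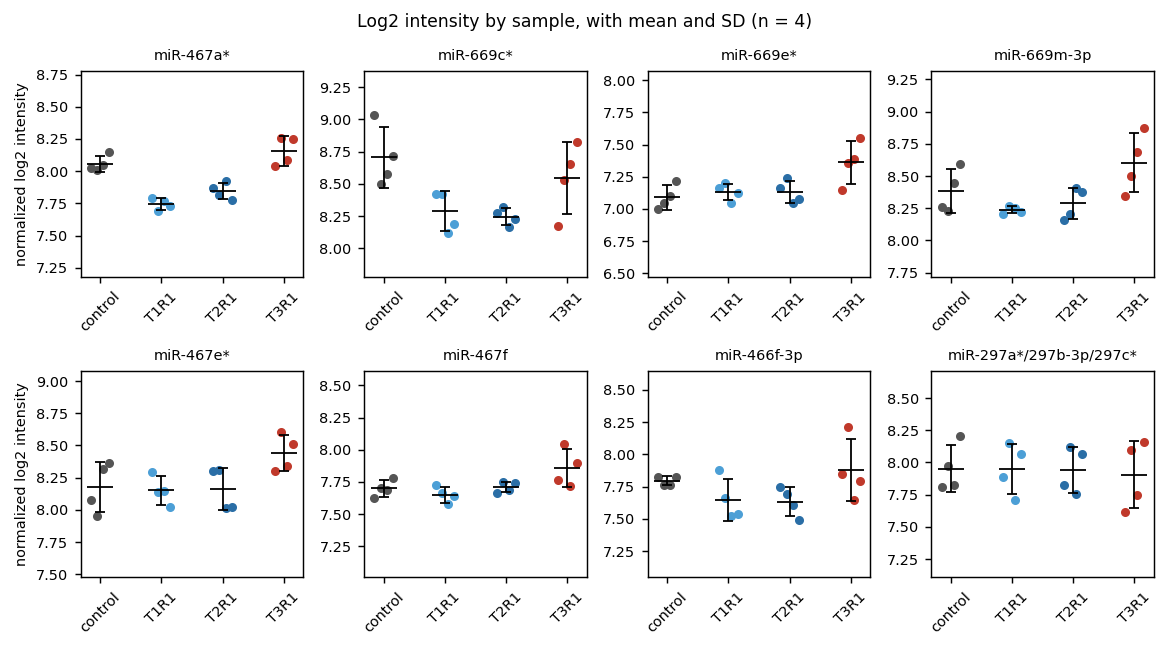
Normalized log2 intensity (vertical axis, the same span in every panel) of 8 members in each sample of control, T1R1, T2R1 and T3R1, with points for samples and bars for the mean and SD (n = 4). miR-467a* and miR-669c* are lowest in T1R1 and T2R1, miR-669e*, miR-669m-3p, miR-467e* and miR-467f have their highest mean in T3R1, and the miR-297 probe shows 4 overlapping groups.

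Between exposed groups the largest differences were those of T3R1 over T1R1, and miR-467a* was the member called. T2R1 and T1R1, which share a slide run, differed least. For T2R1 against T1R1 limma called 0 members and 0% of all probes, 0 members had an unadjusted p under 0.05 (3.52% of all probes), and miR-467a* differed by 0.10 ± 0.07 (SE). In T3R1 against T1R1, miR-467a* was higher by 0.41 ± 0.07 (SE, n = 4 against 4), or 1.33-fold, with a limma adjusted p of 0.00402 and no overlap. This was 1 of 71 members, against 2.74% of all probes called. The call remained in each of the 16 fits with a sample left out and in 10 of 16 other settings. In T3R1 against T2R1, miR-467a* was higher by 0.31 ± 0.07, or 1.24-fold, with a limma adjusted p of 0.0392, again as 1 of 71 members, against 1.08% of all probes. That call remained in 6 of 16 fits with a sample left out and in 5 of 16 other settings. Other members of the same strand class had higher values in T3R1 than in T1R1 without passing the test, such as miR-669m-3p by 0.36 ± 0.11 (limma adjusted p = 0.0945), miR-669p* by 0.27 ± 0.09 (limma adjusted p = 0.170) and miR-467e* by 0.29 ± 0.11 (limma adjusted p = 0.233). In these comparisons 20 of the 22 members with a signal in every sample were positive against either shorter exposure, with a median of 0.21 against T1R1 and 0.16 against T2R1. Of all probes 41.3% were positive against T1R1 and 43.1% against T2R1. Comparisons that share a group are not independent of each other.

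The sign of these medians depended on how arrays were scaled, while their place relative to other microRNAs with a signal did not. In T1R1 against control the median of the 22 members was -0.09 with distributions set equal between arrays, 0.43 with scaling by the median of each sample and -0.19 with no step between arrays. Over all mouse probes the median was 0.01, 0.03 and -0.59 under these settings. The 110 other mouse probes with a signal in every sample had medians of 0.07, 0.67 and 0.05. Subtracting the median of these 110 from that of the 22 members gave -0.17, -0.24 and -0.24 for T1R1 and -0.08, -0.17 and -0.17 for T2R1. For T3R1 against control it gave 0.13, 0.12 and 0.12. With 1 sample left out and distributions set equal, it became 0.06 without control replicate 2, 0.07 without T3R1 replicate 2 and 0.21 without T3R1 replicate 1. For T2R1 it then ran between -0.14 (without control replicate 2) and -0.05 (without control replicate 3), and for T1R1 between -0.24 and -0.12. Median scaling and no step between arrays give the same value by construction, since they differ by a constant per sample. The difference between medians was 0.36, 0.35 and 0.35 for T3R1 against T1R1.

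**Figure D4:**
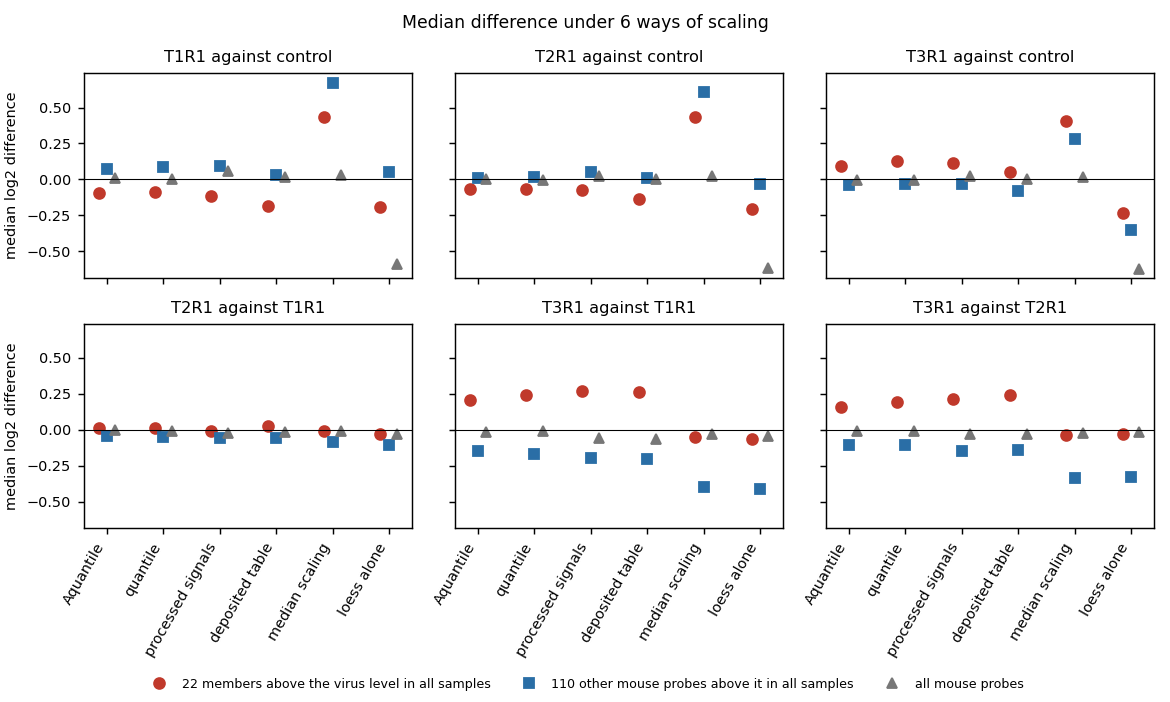
Median log2 difference (vertical axis) of the 22 members above the virus level in all samples (circles), of 110 other such mouse probes (squares) and of all mouse probes (triangles) under 6 ways of scaling (horizontal axis), with a panel per comparison. The circles change sign between scalings, but they lie below the squares in T1R1 and T2R1 against control and above them in T3R1 against control, T1R1 and T2R1.

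Single samples overlapped on this relative measure. For each sample the median deviation of the 22 members from their own means was set against that of the 110 other probes. The T1R1 samples had 0.00, -0.10, -0.21 and -0.20, the T2R1 samples -0.00, -0.00, -0.15 and -0.14, and the T3R1 samples -0.07, 0.22, 0.18 and 0.38, against -0.04, -0.10, 0.10 and 0.21 in control. Means were -0.13 ± 0.10 in T1R1, -0.07 ± 0.08 in T2R1 and 0.18 ± 0.19 in T3R1, and 0.04 ± 0.14 in control (SD, n = 4 each). The SD within T3R1 was wider than the distance of its mean from that of control. By dye the means of 2 samples each were 0.30 in T3R1 and 0.06 in control with Hy5, and 0.06 in T3R1 and 0.03 in control with Hy3.

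The members with a signal tended to move together from sample to sample, and most differed in the same direction between dyes and between slide runs. After group and dye were removed, pairs among the 22 members had a median correlation of 0.48 over 16 samples, and 183 of 231 pairs were positive. Pairs of a member with one of the 110 other probes had a median of -0.17, and pairs among those others 0.08. These probes share arrays and related sequence, so the correlations are a description. Hy5 was above Hy3 for 20 of the 22 members, with a median of 0.08, against 0.01 over all mouse probes. The 2 exceptions were miR-466i-5p at -0.16 and miR-669c at -0.19. Over all 71 members Hy5 was above Hy3 for only 46, with a median of 0.04. The most negative was miR-669o-5p at -0.40, above the virus level in 9 samples. It had 6.44 to 6.81 in the Hy5 samples and 6.80 to 7.18 in the Hy3 samples. Between slide runs, run 2 was below run 1 for 20 of the 22 members, with a median of -0.10, against 0.09 for the other 110 probes. Positioning spots that bind no sample RNA were at 24784 ± 2125 in run 2 and 15723 ± 263 in run 1 (SD, n = 4 arrays each). The part of the run in the T1R1 and T2R1 differences was not tested and cannot be told apart from exposure.

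Markers of heart muscle were present, and so were those of blood vessels and blood cells. Of 5 heart muscle probes, miR-499, miR-133a and miR-133b were above the virus level in all 16 samples, miR-208a-3p in the 15 with a value and miR-208b in 7. Of the 14 probes of the miR-290 to miR-295 cluster, which like the Sfmbt2 cluster is known from embryonic stem cells, 13 were never above it, and the exception was miR-290-5p. The endothelial miR-126-3p and miR-126-5p, the smooth muscle miR-145 and the erythroid miR-144 were above it in all 16 samples, and miR-143 and miR-451 in the 9 and 12 with a value. Of 5 leukocyte probes miR-142-3p and miR-223 were above it in all samples, miR-150 in 15, miR-142-5p in 14 and miR-155 in none. The liver marker miR-122 was in none, and of 3 neuronal and 5 epithelial probes 6 were in none and miR-128 and miR-200a in 1 sample each. Beside the positive median of the members, differences of T3R1 from control were negative for all 5 heart muscle probes (median -0.30), all 3 erythroid probes (-0.33), all 5 leukocyte probes (-0.12) and both endothelial probes (-0.32), with none called. The summed linear intensity of the heart muscle probes was 5983 to 10502 in 4 T3R1 samples, against 8812 to 15140 in the 3 control samples with all 5 values. For the endothelial probes it was 1950 to 3166 in T3R1 and 2856 to 3891 in control, and for the leukocyte probes 620.3 to 690.4 in T3R1 and 664.5 to 823.0 in control. In T3R1 against T1R1, where miR-467a* was called higher, miR-133b (-0.63 ± 0.15) and the endothelial miR-126-3p (-0.56 ± 0.13, SE) were called lower, both with a limma adjusted p of 0.0361. The leukocyte miR-150 was called lower in T2R1 than in control, with a difference of -0.25 ± 0.04 (SE, limma adjusted p = 0.00696). Whether these markers have a part in the values of the members was not tested.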

How the data were processed

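The authors deposited the scanner output of 8 arrays of 2 colours. Per the file headers, Feature Extraction 9.5.3.1 from Agilent gave each spot a mean and a background median intensity in both channels. A deposited table of log2 values for the same 16 samples was an alternative; per the values it tracks the processed intensity of its own channel (r of 0.967 to 0.995), and its centring is unknown. With R 4.3.3 and limma 3.58.1, background was corrected by normexp (offset 50), dyes by loess within arrays, and arrays by Aquantile. Outlier spots were left out (29 of 4544 member spots), and the spots of a probe were averaged. A model with group and dye, and array as random block (consensus correlation 0.250), was fitted to all mouse probes with lmFit and eBayes. Over mouse probes above the virus level in at least 4 samples this correlation was 0.643. With that value in the fit, each call of miR-467a* was lost. Benjamini-Hochberg adjustment covered all tested probes, with calls at an adjusted p under 0.05. The 2 arrays per group limit precision, with a median SE of 0.07 for a member against control. The fit was also run on simulated data with the lower array correlation given above and changes larger than any member showed in the main fit. That run cannot speak for the calls made here.

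The members, lists and tests were chosen with earlier results of these data known. Members named with values are those called, the 10 brightest in control, the most extreme members against control among those above the virus level in at least 4 samples, the lowest-p members per comparison, and the brightest of each subfamily and strand; names outside this rule were chosen after their values were seen. Gene places and sequences are from RefSeq. No pair of samples was identical (correlation within groups up to 0.986). Replicate numbers were not used to pair samples. Of 24 same-numbered pairs 8 correlated over 0.1 after group and dye were removed, and 19 after group alone was removed. With both removed, correlations ran from -0.47 to 0.41 over all pairs. Between control and T3R1, which share a slide run, they were 0.10, 0.29, 0.37 and 0.40, so pairing of these samples is not settled.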

Additional observations from a re-analysis of the deposited data

Results flagged for a closer look

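One sample stood far from the other 3 of its group in 3 of the 104 groups of 4 values examined, which were the named members and the counts above the virus level. Chance alone flags about 1 in 20 groups. miR-297c was at 7.36 in control replicate 1, against 6.25 to 6.28 in the other control samples. miR-467b* was at 7.30 in T3R1 replicate 4, against 6.94 to 6.97 in the other T3R1 samples. miR-467d* was at 6.65 in T1R1 replicate 1, against 6.82 to 6.84 in the other T1R1 samples.

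In the main fit the difference of miR-467a* from control was not the same after different lengths of exposure. Tested directly, T3R1 exceeded T1R1 by 0.41 ± 0.07 (limma adjusted p = 0.00402) and T2R1 by 0.31 ± 0.07 (limma adjusted p = 0.0392; SE, n = 4 against 4 in each). In both, the run of slides cannot be told apart from exposure. The call over T1R1 remained in 10 of 16 other settings and in 16 of 16 fits with a sample left out. For the call over T2R1 these were 5 of 16 and 6 of 16. Both calls were lost with the array correlation of 0.643.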

How the results depend on the processing

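Where a member was called, the number called changed with many choices, while 0 calls for T2R1 against T1R1 held in all 32 other settings. The 0 calls for T2R1 and T3R1 against control changed only under median scaling and with no step between arrays. In T1R1 against control the single call became 0 with normexp at offset 0, processed signals, quantile normalization, the deposited values, dim probes left out, the array correlation of probes above background, arrays averaged, outlier spots kept, a fit of the 2 groups alone, or control spots left out before the step between arrays (chosen after seeing the data). The call in T3R1 against T1R1 became 0 with normexp at offset 0, processed signals, the deposited values, no step between arrays or that array correlation, and became 2 with the array ignored, where miR-467f joined miR-467a*. Under median scaling it stayed 1 but changed member and direction: miR-467a* (0.13, adjusted p = 0.510) lost its call and miR-297a*/miR-297b-3p/miR-297c* was called lower (-0.31, adjusted p = 0.0280). The call in T3R1 against T2R1 became 0 with those 5 and with quantile normalization, median scaling, dim probes left out, arrays averaged or the 2 groups alone. With the replicate number as a block it was 0 in T1R1 against control, 3 in T3R1 against T1R1 and 0 in T3R1 against T2R1. Of 24 same-numbered pairs 6 samples correlated best with their own number. Leaving out 1 sample gave 0 to 1 calls for T1R1 against control, 1 to 2 for T3R1 against T1R1, 0 to 2 for T3R1 against T2R1 and 0 to 0 for the rest. Median scaling called 33 members in T1R1, 25 in T2R1 and 10 in T3R1 against control, all higher (20.8%, 18.3% and 2.94% of all probes). With no step between arrays 24, 27 and 27 were called, all lower, where 59.8%, 64.4% and 69.2% of all probes were called. The causes were not tested.

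Median scaling turned these T1R1 differences from control to called rises: miR-467a* 0.31, miR-669d*/miR-669d-2* 0.66, miR-669l* 0.59, miR-669m-3p 0.57, miR-467e* 0.65, miR-669p* 0.49, miR-669a-3p/miR-669o-3p 0.48, miR-297a*/miR-297b-3p/miR-297c* 0.61, miR-669a-3-3p 0.51, miR-467f 0.47, miR-466f-3p 0.41, miR-466i-5p 0.45 and miR-669c 0.41. In T2R1 it did so for miR-467a* 0.39, miR-669d*/miR-669d-2* 0.84, miR-669l* 0.59, miR-669m-3p 0.59, miR-467e* 0.61, miR-669p* 0.45, miR-669a-3p/miR-669o-3p 0.43, miR-297a*/miR-297b-3p/miR-297c* 0.57, miR-669a-3-3p 0.51 and miR-669c 0.36. With no step between arrays, differences from control turned to called falls for miR-466f-5p (-0.49 in T1R1, -0.55 in T3R1), miR-297b-5p (-0.51 in T1R1, -0.59 in T2R1, -0.63 in T3R1) and miR-466b-5p/miR-466o-5p (-0.48 in T3R1). The 22 members above background in all samples became 46 at the median of the virus probes and 6 at their 99th percentile. Other mouse probes and strands were not counted at these cutoffs.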

Other observations

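Probes for rat relatives on the same arrays had a signal in mouse heart RNA, on star and on unstarred names. rno-miR-466b-1* was above the virus level in all 16 samples (7.92 ± 0.09 in control, SD, n = 4), rno-miR-466b-2* in 15 and rno-miR-466c* in 12. The unstarred rno-miR-466b and rno-miR-466c were above it in 2 and 1 samples, rno-miR-466d in 14 and rno-miR-297 in none. The human probe hsa-miR-466 was above it in no sample. The sequences of these probes were not used here.

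Among members seen in few samples, miR-466m-5p/miR-669m-5p exceeded the virus level in control replicate 1 alone, as did miR-297c. Its control values of 7.24, 6.11, 6.45 and 6.39 gave a mean of 6.55 ± 0.49 (SD, n = 4).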
